A study of Mus musculus with 22 samples.

Results

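The Slc39 genes encode the ZIP proteins, membrane transporters that move zinc into the cytosol from outside the cell or from internal stores, and here 10 of them were followed in mouse small intestine: Slc39a1, Slc39a3, Slc39a4, Slc39a5, Slc39a6, Slc39a7, Slc39a8, Slc39a9, Slc39a11 and Slc39a14. They were taken by name, through the Ensembl identifiers of the count table, which lists 54838 genes. All 10 passed the filter on low counts and were among the 16389 genes tested. The family has 14 genes in the annotation, and the remaining 4 (Slc39a2, Slc39a10, Slc39a12 and Slc39a13) were counted with the other zinc-handling genes. GRWT mice, with the wild-type glucocorticoid receptor, and GRDim mice, homozygous in every tissue for a point-mutant receptor that forms homodimers poorly, were female, FVB/N by the labels (the methods name the GRDim breeders' background as FVB/NJ), 8 to 14 weeks old and kept in a conventional animal house. Both genotypes came from intercrosses of heterozygous parents. Drinking water was either plain or held 25 mM ZnSO4, given for 7 days. Bulk RNA was sequenced from whole ileum (12 libraries) or from scraped distal ileum labelled IEC, for intestinal epithelial cells (10 libraries). GRWT mice gave 5 libraries under each treatment, and GRDim mice gave 6. The labels do not say that each library came from another mouse, so p-values measure the spread between these libraries.

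Library totals ran from 13149951 to 15620744 counts, and 3 counts corresponded to 0.192 to 0.228 CPM, the count scaled to library size. Smooth muscle myosin Myh11 separated 12 muscle-rich libraries (298 to 463 CPM) from 10 muscle-poor libraries (3.22 to 20.5 CPM), and the tissue labels did not follow this division. All GRDim water IEC and GRDim zinc ileum libraries were muscle-rich, whereas all GRDim water ileum and GRDim zinc IEC libraries were muscle-poor. In GRDim mice each treatment had 3 libraries of either class, while in GRWT mice it had 3 of the muscle-rich and 2 of the muscle-poor class. Epithelial markers were present throughout: the summed level of the 10 genes on that list was 16554 to 20755 CPM in muscle-rich and 25334 to 30019 CPM in muscle-poor libraries. Marker and member levels, here and below, are TMM-normalised CPM, scaled by the trimmed mean of M-values. GRWT zinc ileum replicate 3, a muscle-poor library, stood apart. Scaled to library size, it had 11.7 CPM of the ileal bile acid-binding protein gene Fabp6 and 4274 CPM of the lactase gene Lct, against at least 4387 and at most 7.56 CPM in the other libraries. Its TMM factor was 0.643, against 0.907 to 1.12 in the others, so TMM scaling raises its values above CPM by library size. Values that this library moves are marked or also given without it.

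ZIP proteins differ in place and partner. In the small intestine Slc39a4 (ZIP4) sits on the luminal membrane of enterocytes and takes up dietary zinc, and loss of its human counterpart causes the zinc deficiency disease acrodermatitis enteropathica. Slc39a5 (ZIP5) is the basolateral importer that faces the blood. Slc39a7, Slc39a9 and Slc39a11 act largely on internal membranes, Slc39a14 and Slc39a8 also carry manganese and iron, and Slc39a1 and Slc39a3 are widely expressed surface importers.

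A short stretch of the metal site sets Slc39a8 and Slc39a14 apart from the other members that have it, and is shown here to tell the genes apart. A script translated the longest coding sequence of each gene in the GENCODE vM21 transcripts (GRCm38) and found the stretch, by the pattern shared by the LIV-1 subfamily of ZIP proteins, in 6 of the 10 members, namely Slc39a4, Slc39a5, Slc39a6, Slc39a7, Slc39a8 and Slc39a14. It covers 27 bases, 5′ to 3′ on the coding strand, and the first codon is in capitals:
Slc39a4: CATgagctgccccatgaactcggggac
Slc39a5: CACgagctgccccacgaactgggtgac
Slc39a7: CACgaagtgcctcatgaggttggggat
Slc39a8: GAGgagtttcctcatgagttaggggac
Slc39a14: GAGgaattccctcatgagctgggagac
The first codon encoded histidine in Slc39a4, Slc39a5 and Slc39a7, and glutamate in Slc39a8 and Slc39a14. Slc39a4 and Slc39a5 shared 23 of the 27 bases, and Slc39a8 and Slc39a14 shared 22. The Slc39a7 stretch lies unbroken at chr17:34029549-34029575 on the minus strand. The others cross an exon junction: chr15:76612938-76613225 (minus strand) for Slc39a4, chr10:128396652-128396772 (minus) for Slc39a5, chr3:135884383-135884606 (plus) for Slc39a8 and chr14:70308830-70309779 (minus) for Slc39a14.

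Levels can be compared between genes only per length, so TMM-normalised CPM (scaled by the trimmed mean of M-values) was divided by the kilobases of annotated exon. On this scale Slc39a4 was the highest member in GRWT mice on water. It reached 78.1 ± 10.8 CPM per kb in muscle-rich (SD, n = 3) and 109 ± 0.929 in muscle-poor libraries (SD, n = 2). Slc39a5 came next, with 58.8 ± 3.66 and 95.3 ± 4.25 CPM per kb. Slc39a1, Slc39a9, Slc39a11, Slc39a14 and Slc39a3 followed in that order in both classes, from 29.5 down to 6.54 CPM per kb in muscle-rich libraries, and no neighbours among these first 7 overlapped between libraries. Slc39a7, Slc39a6 and Slc39a8 were lowest, and in muscle-rich libraries their ranges overlapped (1.42 to 2.21 CPM per kb over all 3 genes). The level of Slc39a7 is uncertain, since 80.7% of its exon bases are shared with the transcript Gm20427 on the same strand. Slc39a9 shares 4.52% of its exon bases with Erh on the opposite strand, and the strand setting of the counting is not given in the sources used here.

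To see whether oral zinc changed the importers, zinc was compared with water in each genotype, with the muscle class as a covariate. Slc39a4 fell in both genotypes and was the only member to pass (adjusted p under 0.05 over all genes tested) in either comparison. Its gene, ENSMUSG00000063354, lies at chr15:76612383-76617384 on the minus strand. In muscle-rich libraries of GRWT mice, TMM-normalised CPM was 204, 259 and 265 on water and 29.5, 41.0 and 47.5 on zinc. In muscle-poor libraries of GRWT mice it was 335 and 339 on water, and 71.7 and 48.0 on zinc, the last being the library that stood apart. Every zinc library was thus below every water library of its class. The log2 fold change was -2.58 ± 0.13 (SE), which is 0.168 of the water level (edgeR quasi-likelihood test, adjusted p = 1.8e-10), and without GRWT zinc ileum replicate 3 it was -2.49 (adjusted p = 1.4e-10).

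GRDim mice showed the same direction. In their muscle-rich libraries Slc39a4 was at 145, 145 and 166 CPM on water and at 44.8, 50.2 and 56.0 CPM on zinc. Their muscle-poor libraries gave 273, 292 and 302 CPM on water and 81.6, 91.1 and 93.6 CPM on zinc, again with no overlap. The log2 fold change was -1.65 ± 0.12 (SE), or 0.318 of the water level (edgeR, adjusted p = 8.5e-08). Groups apart in both classes and in the same direction were found for 1 of 10 members in GRWT mice (4.65% of all genes) and for 2 of 10 in GRDim mice (10.95% of all genes).

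**Figure D1:**
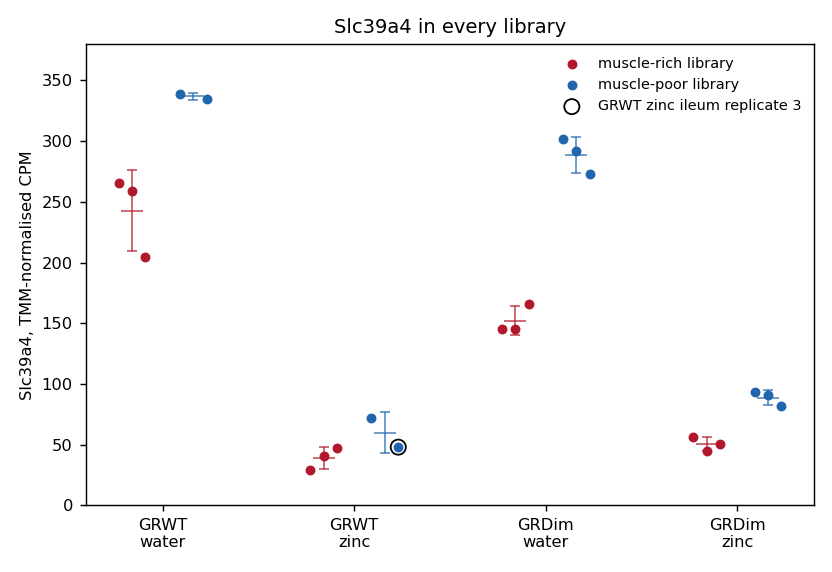
TMM-normalised CPM of Slc39a4 (vertical axis) in each of the 22 libraries by condition (horizontal axis), with muscle-rich libraries in red, muscle-poor libraries in blue, and bars for the mean ± SD. In each class and genotype all zinc libraries, from 29.5 to 93.6 CPM, lie below all water libraries, from 145 to 339 CPM.

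This fall held within each muscle class. In muscle-rich libraries alone the log2 fold change of Slc39a4 was -2.62 ± 0.17 for GRWT and -1.62 ± 0.17 for GRDim mice (SE; edgeR, adjusted p = 0.0011 for each). In muscle-poor libraries alone it was -2.48 ± 0.18 (adjusted p = 0.0016) and -1.70 ± 0.14 (adjusted p = 0.0028), and the GRWT value was -2.24 without replicate 3. Within a class, tissue label and treatment cannot be told apart in GRDim mice, since all muscle-rich libraries were IEC on water and ileum on zinc, and all muscle-poor ones the reverse. With muscle class and tissue label together in the fit of all libraries, the GRDim value was again -1.65 and passed. Each GRDim treatment holds 3 libraries of each label and 3 of each class, so adding the label could hardly move this value. It does not separate label from treatment within a class. The zinc effect on Slc39a4 did not differ detectably between the classes: the difference was -0.01 on the log2 scale, with a 95% interval from -0.36 to 0.33 (edgeR, adjusted p = 1.0). None of the 10 members passed that test, which 0.0427% of all genes passed. For markers of absorptive enterocytes, the cells that carry ZIP4, the summed level in muscle-rich libraries (6 of 6 genes detected) was 10981 to 12784 CPM on water and 10907 to 12663 CPM on zinc in GRWT mice, and 5027 to 5647 CPM against 7579 to 9991 CPM in GRDim mice. In muscle-poor libraries it was 17395 to 20601 CPM on water and 21413 and 83831 CPM on zinc (the last in replicate 3) in GRWT mice, and 11973 to 12556 CPM against 14323 to 18217 CPM in GRDim mice. T cell markers (7 of 7 detected) were lower on zinc in GRDim mice, at 193 to 197 CPM against 348 to 421 CPM in muscle-rich and 157 to 230 CPM against 266 to 455 CPM in muscle-poor libraries. Proximal small intestine markers (6 of 6 detected) were higher on zinc with no overlap in any class or genotype. They summed to 392 to 451 CPM against 366 to 390 CPM on water in muscle-rich GRWT, 495 and 19660 CPM (replicate 3) against 426 to 441 CPM in muscle-poor GRWT, 293 to 395 CPM against 242 to 279 CPM in muscle-rich GRDim, and 453 to 524 CPM against 358 to 413 CPM in muscle-poor GRDim libraries. Smooth muscle markers were lower on zinc in muscle-rich GRWT libraries (1677 to 2210 CPM against 2306 to 2525 CPM). Macrophage markers were lower on zinc in muscle-rich GRDim libraries (259 to 355 CPM against 374 to 408 CPM). Both lists overlapped between water and zinc in the remaining sets. The part of all these markers in the fall of Slc39a4 was not tested.

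Against the background, 1 of 10 members passed in GRWT mice, where 0.293% of all genes tested did (48 of 16389). The same 1 member passed in GRDim mice, where 1.65% of genes did (271). In muscle-rich libraries alone, Slc39a4 was again the only member to pass, with 0.383% of genes in GRWT and 7.71% in GRDim mice. In muscle-poor libraries alone it was also the only one, with 0.0431% and 0.0575% of genes. The median log2 fold change over the 10 members was 0.04 in GRWT and -0.07 in GRDim mice, close to the 0.00 of all genes in both. Among the other 9 members it lay between -0.09 and 0.29 in GRWT mice, and between -0.27 and 0.16 in GRDim mice. Without GRWT zinc ileum replicate 3 the median in GRWT mice was -0.02 and the other 9 members lay between -0.14 and 0.18.

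**Figure D2:**
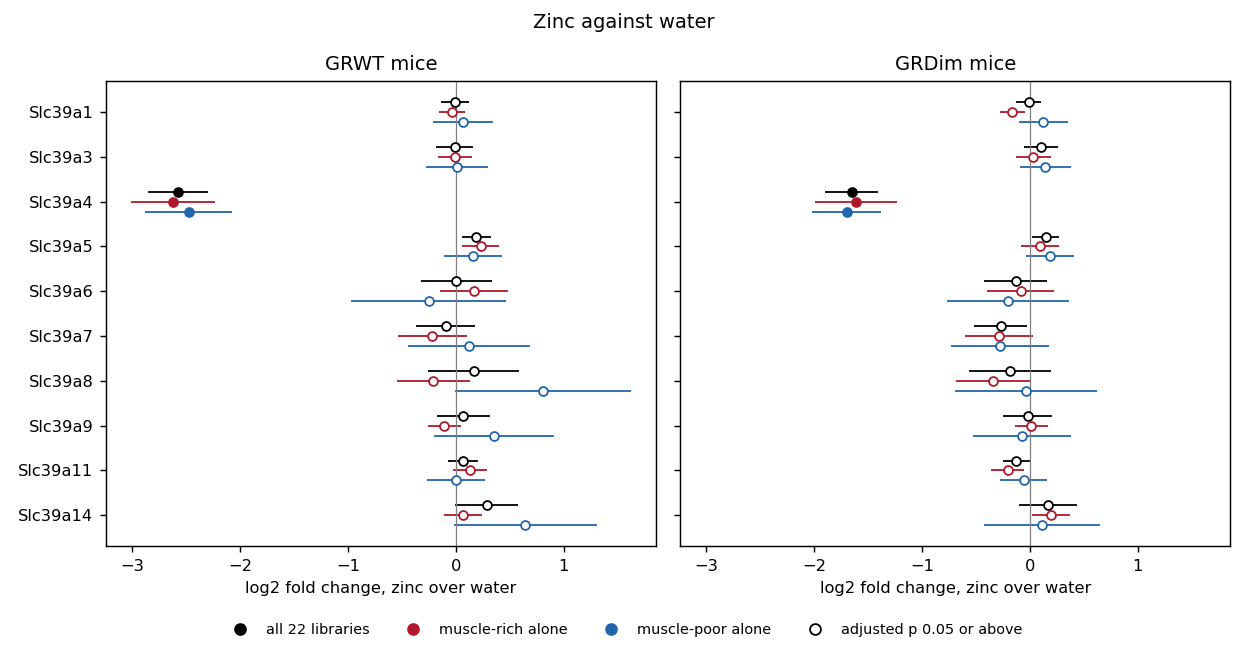
Log2 fold change of each member, zinc over water (horizontal axis), in GRWT mice (left) and GRDim mice (right), from all 22 libraries (black), muscle-rich libraries alone (red) and muscle-poor libraries alone (blue), with 95% intervals and filled points for an adjusted p under 0.05. Slc39a4 is the only filled gene, near -2.6 to -2.5 in GRWT mice and near -1.7 to -1.6 in GRDim mice.

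The share of the family's summed level taken by Slc39a4 fell with it. Per kilobase of exon, Slc39a4 made up 35.0 ± 3.66% of the 10 members in muscle-rich and 36.6 ± 0.656% in muscle-poor GRWT water libraries, and 7.62 ± 1.76% and 8.60 ± 3.39% on zinc. The last value joins 6.21% in GRWT zinc ileum replicate 3 and 10.998% in the other library. In GRDim mice the share went from 25.6 ± 2.01% and 33.6 ± 0.904% on water to 10.2 ± 1.17% and 12.6 ± 0.661% on zinc (SD, n = 2 or 3). The summed level of the other 9 members changed less: in muscle-rich libraries it was 145 ± 2.94 and 154 ± 14.2 CPM per kb in GRWT mice, and 142 ± 4.16 and 143 ± 2.27 in GRDim mice, on water and zinc in turn. In muscle-poor libraries it was 188 ± 3.71 and 210 ± 33.0 CPM per kb in GRWT mice, with 187 in the zinc library other than replicate 3. In muscle-poor GRDim libraries it was 184 ± 9.20 and 198 ± 3.56 CPM per kb. Slc39a5 was the highest member on zinc in all 4 sets of libraries, and Slc39a4 was then at rank 5 in muscle-rich libraries of both genotypes and at ranks 4 (GRWT) and 3 (GRDim) in muscle-poor libraries. Without GRWT zinc ileum replicate 3 the rank in muscle-poor GRWT libraries was 3 as well.

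The size of the zinc effect on Slc39a4 was compared between genotypes through their interaction. The fall was smaller in GRDim mice by 0.93 ± 0.17 on the log2 scale (SE, 95% interval 0.57 to 1.28). Of all 16389 genes Slc39a4 had the lowest p-value for this term (unadjusted p = 2.5e-05), but it did not pass after adjustment by the edgeR quasi-likelihood test (adjusted p = 0.41). No member and 0% of all genes passed that test, although 1227 genes had an unadjusted p under 0.05. DESeq2 gave a difference of 0.91 with an adjusted p of 0.0014, and over all alternatives to the main design the adjusted p of this term ran from 0.0014 to 1.0. How many of all genes passed this term under DESeq2 was not counted. The difference was 1.00 in muscle-rich libraries alone (adjusted p = 0.11), 0.78 in muscle-poor libraries alone (adjusted p = 0.75) and 0.83 without GRWT zinc ileum replicate 3 (adjusted p = 0.094; all edgeR).

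Among the other importers, Slc39a5 was slightly higher on zinc. Its gene, ENSMUSG00000039878, lies at chr10:128395931-128401229 on the minus strand. In muscle-poor libraries it was at 205 and 219 CPM in GRWT mice on water, and at 221 and 247 CPM on zinc, the last being the library that stood apart. In muscle-poor GRDim libraries it was at 196, 203 and 219 CPM on water and at 231, 231 and 238 CPM on zinc. Muscle-rich libraries were lower: 124 to 140 CPM on water and 140, 140 and 178 CPM on zinc in GRWT mice, and 124 to 127 CPM against 132 to 139 CPM in GRDim mice. Water and zinc libraries overlapped in the muscle-rich GRWT set. They did not in the muscle-poor GRWT, muscle-rich GRDim and muscle-poor GRDim sets, where 37.6%, 31.6% and 24.1% of all genes did not overlap either.

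Slc39a5 did not pass in either genotype (log2 fold change 0.19 ± 0.07, adjusted p = 0.21 in GRWT, and 0.15 ± 0.06, adjusted p = 0.23 in GRDim; edgeR). Averaged over genotypes it rose by 0.17 ± 0.04 (edgeR, adjusted p = 0.034), and 2 of the 10 members passed in this comparison, Slc39a4 being lower (-2.11), where 4.5% of all genes passed (737). The call for Slc39a5 held in 10 of 22 fits with 1 library left out, with an adjusted p of at most 0.075, and in 5 of 14 other alternatives. The proximal small intestine markers given above moved with it in every class and genotype. So did exocrine pancreas markers (1 of 8 passed the filter, and Cpa1 was at 0 in every library), apart from an overlap in muscle-rich GRDim libraries: their sum was 30.4 to 34.0 CPM on zinc against 23.8 to 30.4 CPM on water in muscle-rich GRWT, 26.5 and 28.8 CPM against 18.9 and 19.2 CPM in muscle-poor GRWT, 5.70 to 14.8 CPM against 4.30 to 5.95 CPM in muscle-rich GRDim and 14.8 to 23.1 CPM against 9.26 to 13.8 CPM in muscle-poor GRDim libraries. Their part in the rise of Slc39a5 was not tested. The call failed in muscle-rich libraries alone (adjusted p = 0.13) and in muscle-poor libraries alone (adjusted p = 0.26). It was lost without any of GRDim water replicates 4, 5, 6 and the unnumbered pair, GRDim zinc replicates 2, 4 and 5, or GRWT water replicates 2 to 5.

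Sequence before the start site was looked at for the metal response element, the site of the zinc-sensing factor Mtf1, by its core letters TGCACNC and TGCGCNC on both strands. In RefSeq promoters (GRCm38.p6, 250 bases before to 50 after the start), 10 windows belong to 7 of the members, and 5 of the 10 held a match against 25.7% of all 32851 promoters. Matches were found for Slc39a3, Slc39a5, Slc39a8 and Slc39a11. The glucocorticoid receptor palindrome, GNACA and TGTNC separated by 3 bases, was in none of the 10 windows and in 0.475% of all promoters. Slc39a4, Slc39a6 and Slc39a14 had no entry. A promoter window of Slc39a5, the member that rose on average, is printed with its match in capitals (read from the other strand), on the minus strand at chr10:128401175-128401474:
Slc39a5: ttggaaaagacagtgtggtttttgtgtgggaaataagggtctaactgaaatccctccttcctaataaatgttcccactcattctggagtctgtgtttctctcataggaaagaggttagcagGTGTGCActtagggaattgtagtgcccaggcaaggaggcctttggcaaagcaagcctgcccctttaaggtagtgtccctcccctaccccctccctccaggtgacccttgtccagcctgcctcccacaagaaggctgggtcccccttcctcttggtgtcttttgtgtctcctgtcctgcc

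The remaining 8 members did not pass in either genotype or in their average. Slc39a14 was at 92.5 to 107 CPM in the 5 GRWT water libraries and at 98.2 to 107 CPM in 4 GRWT zinc libraries, but at 225 CPM in GRWT zinc ileum replicate 3. With that library its log2 fold change on zinc in GRWT mice was 0.29, and without it 0.04. Slc39a9 had 348 CPM in the same library and 166 to 220 CPM in the other GRWT libraries, and its fold change went from 0.07 to -0.13. Slc39a8 had 18.9 CPM there against 7.72 CPM in the other muscle-poor GRWT zinc library. The TMM factor of this library (0.643) raises these values above CPM by library size, and the part of the scaling was not tested. Neither Slc39a14, Slc39a9 nor Slc39a8 passed with or without this library.

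**Figure D3:**
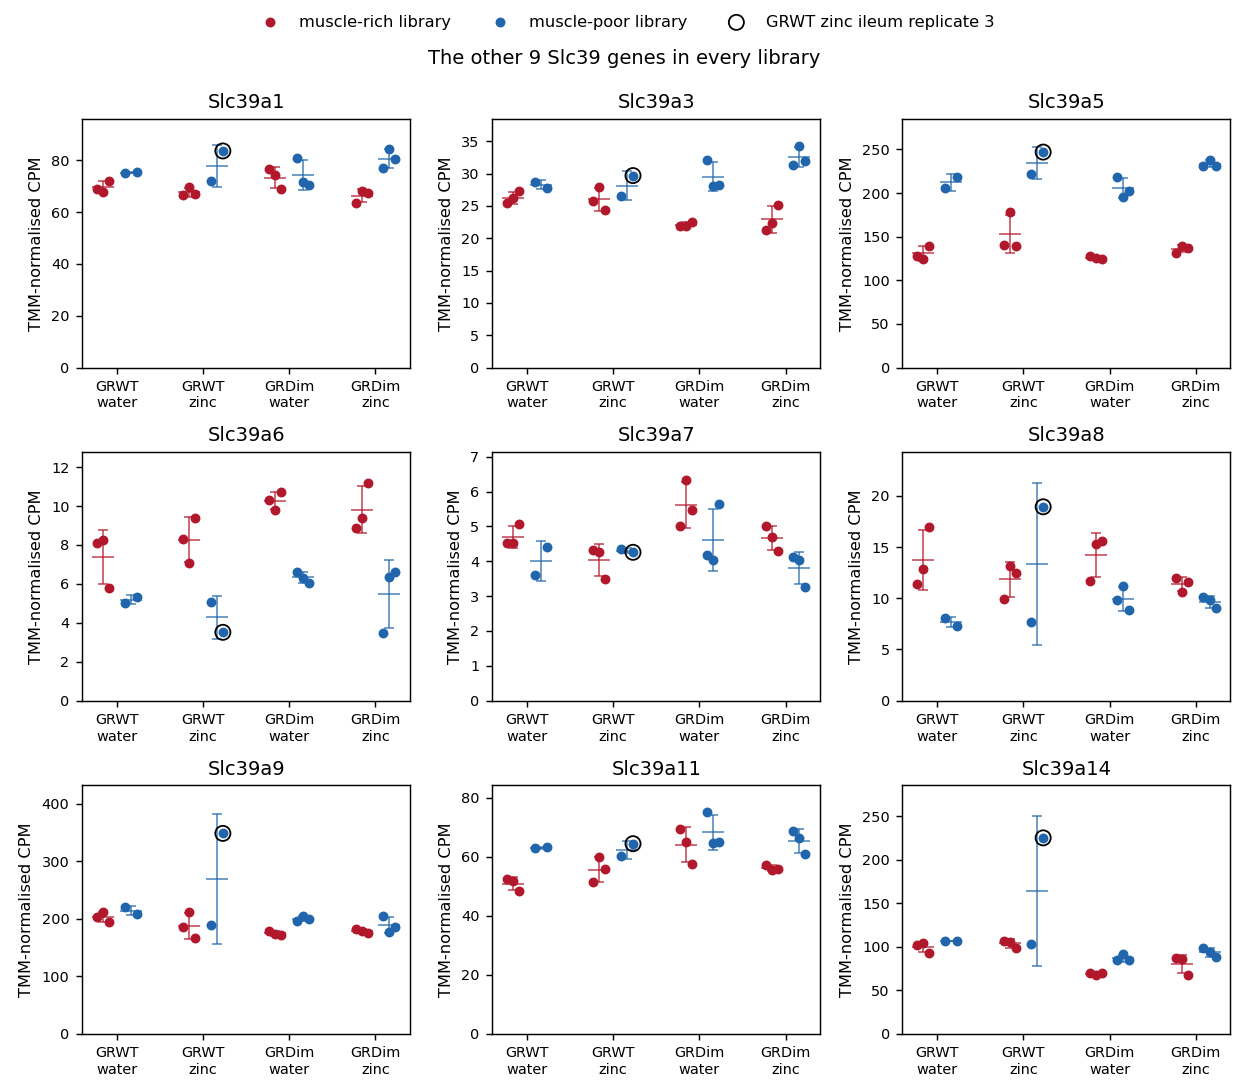
TMM-normalised CPM (vertical axes) of the other 9 members in each library by condition, muscle-rich in red, muscle-poor in blue, bars for the mean ± SD, and GRWT zinc ileum replicate 3 ringed. Slc39a9 (348 CPM), Slc39a14 (225 CPM) and Slc39a8 (18.9 CPM) are highest in the ringed library (TMM factor 0.643), as is Slc39a5 (247 CPM, the next library 238 CPM), which also separates by muscle class in every condition.

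Zinc handling also rests on exporters (Slc30), metallothioneins, which bind zinc, and Mtf1, and 19 such genes, the other Slc39 genes included, were counted beside the members. Of the 15 that were tested, 4 rose and 1 fell in GRWT mice, where 0.293% of all genes passed, and 5 rose and none fell in GRDim mice, where 1.65% did (edgeR). Mt1, Mt2, Mt4 and the exporter gene Slc30a2 rose in both genotypes, and Slc30a10 rose in GRDim mice (log2 fold change 1.06, adjusted p = 0.018). The gene that fell in GRWT mice was another importer, Slc39a10, with a log2 fold change of -0.90 ± 0.19 (adjusted p = 0.047). In muscle-rich GRWT libraries it went from 14.8 to 18.3 CPM on water to 8.42 to 10.4 CPM on zinc, although it did not pass in those libraries alone. In GRDim mice Slc39a10 was at -0.59 (adjusted p = 0.087), and at -0.60 (adjusted p = 0.012) without GRWT zinc ileum replicate 3.

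Over all 22 libraries, after the mean of each muscle class was subtracted, Slc39a10 was also the gene whose log2 CPM was most like that of Slc39a4 among 12751 genes (r = 0.84). Next came Snrnp27, Slc38a3, Tctn3 and Plod3 (r = 0.75 to 0.79). The most opposite genes were Mt1 (r = -0.98), Mt2, Mt4, Rab29 and Slc30a2 (r = -0.92). Among the members, Slc39a5 had the most opposite pattern (r = -0.68) and Slc39a7 the most similar (r = 0.36). These correlations are descriptions over libraries that share the zinc treatment.

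Genotypes were then compared on water, to see whether the importers differ without added zinc. Slc39a4 and Slc39a14 were lower in GRDim mice and Slc39a11, an importer of internal membranes, was higher. These 3 of 10 members passed, where 16.2% of all genes did (2658 of 16389), and the other 7 did not. Slc39a4 (values above) was lower in GRDim libraries of both classes, with a log2 fold change of -0.48 ± 0.12 (SE; edgeR, adjusted p = 0.012), which did not pass when libraries were scaled by their totals alone (-0.42, adjusted p = 0.091). It passed in 10 of 15 alternatives other than leaving out 1 library, and was also lost with the tissue label or no covariate in place of the muscle class and in muscle-poor libraries with or without GRWT zinc ileum replicate 3.

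Slc39a14, ENSMUSG00000022094 at chr14:70303469-70351425 on the minus strand, was at 92.5, 102 and 104 CPM in muscle-rich GRWT water libraries and at 67.5, 69.5 and 69.7 CPM in GRDim ones. In muscle-poor libraries it was at 107 CPM in both GRWT libraries and at 84.2, 84.5 and 91.0 CPM in GRDim libraries. The groups did not overlap in either class, as was so for 5 of the 10 members and 19.9% of all genes in this comparison (53.1% in muscle-rich and 38.2% in muscle-poor libraries). The log2 fold change was -0.44 ± 0.14, or 0.735 of the GRWT level (edgeR, adjusted p = 0.031), and -0.42 without GRWT zinc ileum replicate 3 (adjusted p = 0.00012), which enters the estimate of the spread.

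Slc39a11, ENSMUSG00000041654 at chr11:113244853-113650079 on the minus strand, was at 48.3, 51.7 and 52.5 CPM in muscle-rich GRWT water libraries and at 57.6, 65.0 and 69.3 CPM in GRDim ones. Muscle-poor libraries held 62.8 and 63.2 CPM in GRWT and 64.5, 65.1 and 75.1 CPM in GRDim mice. The ranges were apart in both classes, though by little in the muscle-poor libraries. The log2 fold change was 0.23 ± 0.06 (edgeR, adjusted p = 0.016).

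**Figure D4:**
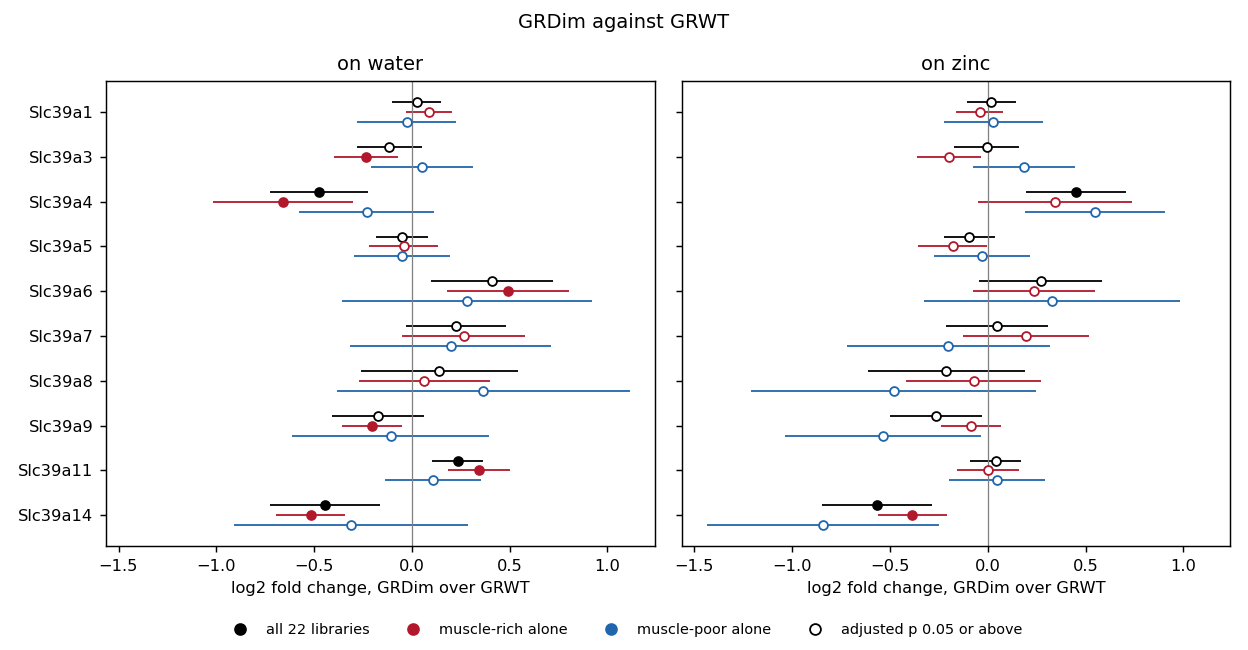
Log2 fold change of each member, GRDim over GRWT (horizontal axis), on water (left) and on zinc (right), from all 22 libraries (black), muscle-rich libraries alone (red) and muscle-poor libraries alone (blue), with 95% intervals and filled points for an adjusted p under 0.05. Slc39a4 is at -0.48 on water and 0.45 on zinc, and Slc39a14 lies below 0 on both.

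Within the muscle-rich libraries alone, 6 of 10 members passed on water, where 38.7% of all genes did: Slc39a4 (-0.66), Slc39a14 (-0.52), Slc39a3 (-0.24) and Slc39a9 (-0.21) were lower, and Slc39a6 (0.49) and Slc39a11 (0.34) were higher in GRDim mice. In muscle-poor libraries alone none of the 10 passed (0 members, 3 against 2 libraries), where 0.0288% of genes did, and Slc39a4 was at -0.23 (edgeR, adjusted p = 0.97; 95% interval -0.58 to 0.12). Whether the genotype difference itself differed between the classes was not tested. Without GRWT zinc ileum replicate 3, 5 members passed on water in the remaining libraries, where 31.1% of all genes did, Slc39a6 (0.42) and Slc39a9 (-0.15) being added, and Slc39a6 also passed without GRDim zinc replicate 4 (0.40, adjusted p = 0.031). The call for Slc39a14 was lost when any of GRDim water replicates 1, 4, 5 and 6 or GRWT water replicates 1, 4 and 5 was left out (adjusted p 0.055 to 0.083), and in 7 of 15 other alternatives: the tissue label or no covariate in place of the muscle class, the numbered libraries with or without the replicate block, the muscle-poor libraries with or without GRWT zinc ileum replicate 3, and no filter. That for Slc39a11 was lost without GRWT water replicate 1 (adjusted p = 0.058) and in 4 of the 15.

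Markers of absorptive enterocytes moved with genotype on water. The summed level of the 6 genes on that list, all of them detected, was 5027 to 5647 CPM in muscle-rich GRDim and 10981 to 12784 CPM in muscle-rich GRWT water libraries, and 11973 to 12556 CPM against 17395 to 20601 CPM in muscle-poor libraries. The 10 epithelial markers summed to 18281 to 19487 CPM and 17566 to 18151 CPM in the muscle-rich libraries of the same groups. Markers of plasma and B cells were also higher in muscle-rich GRDim water libraries (3958 to 4924 CPM against 1672 to 2070 CPM, 6 of 6 genes detected). Paneth cell markers were lower (2250 to 2421 CPM against 6496 to 7863 CPM, 7 of 7 detected) and T cell markers higher (348 to 421 CPM against 54.3 to 87.6 CPM, 7 of 7 detected) in the same libraries. Goblet cell markers (6 of 6 detected) were lower in GRDim mice in both classes, at 7129 to 7945 CPM against 11620 to 11681 CPM in muscle-rich and 12544 to 13071 CPM against 15967 to 16021 CPM in muscle-poor libraries. So were the 5 ileal segment markers (5532 to 6983 CPM against 9160 to 10669 CPM, and 11138 to 12348 CPM against 14401 to 14687 CPM). Proximal small intestine markers were lower in both classes too (242 to 279 CPM against 366 to 390 CPM, and 358 to 413 CPM against 426 to 441 CPM). The summed exocrine pancreas list was also lower (4.30 to 5.95 CPM against 23.8 to 30.4 CPM, and 9.26 to 13.8 CPM against 18.9 and 19.2 CPM). Of the 8 genes on the pancreas list only 1 passed the filter, and Cpa1 had no counts in any library. Whether this sum measures pancreas RNA was not tested. Macrophage markers were higher in muscle-rich GRDim water libraries (374 to 408 CPM against 218 to 278 CPM). Smooth muscle markers were lower there (1754 to 1984 CPM against 2306 to 2525 CPM), so the muscle class did not equalise muscle content between genotypes. Markers of enteric neurons and glia were also lower (9.97 to 12.1 CPM against 16.3 to 19.0 CPM). In muscle-poor libraries both of these lists overlapped between genotypes. The part of these markers in the differences of Slc39a4, Slc39a14 and Slc39a11 was not tested. In bulk tissue, fewer cells of a type and less RNA per cell cannot be told apart.

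On zinc, 2 of 10 members passed between genotypes, where 10.4% of all genes did (1710). Slc39a14 was again lower in GRDim mice. In muscle-rich libraries it was at 98.2, 106 and 107 CPM in GRWT and at 67.6, 85.8 and 86.8 CPM in GRDim mice, and in muscle-poor libraries at 103 and 225 CPM against 87.9, 93.8 and 98.6 CPM. The log2 fold change was -0.57 ± 0.13 (edgeR, adjusted p = 0.018). The size depended on 1 library: without GRWT zinc ileum replicate 3 it was -0.31 ± 0.07 (adjusted p = 0.014), in a fit where 8.36% of all genes passed. The call held in 9 of 15 other alternatives, with values from -0.84 to -0.13 over all 15. The groups were apart in both classes for 1 of 10 members, Slc39a14, and for 7.93% of all genes. Liver markers (6 of 6 detected) summed to 7.02 to 226 CPM in muscle-rich GRDim and 5.05 to 23.4 CPM in muscle-rich GRWT zinc libraries. The albumin gene Alb was at 142 and 61.1 CPM in GRDim zinc replicates 1 and 2, where Slc39a14 was at 86.8 and 85.8 CPM, and at 1.66 CPM in replicate 3, where Slc39a14 was at 67.6 CPM. In GRDim water replicates 4, 5 and 6, also muscle-rich, Alb was at 45.8, 13.8 and 2.41 CPM. Slc39a14 was at 69.7, 67.5 and 69.5 CPM in these water libraries. The part of liver RNA in the genotype difference on zinc was not tested.

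Slc39a4 was higher in GRDim mice on zinc, the opposite of its direction on water. The log2 fold change was 0.45 ± 0.12 (edgeR, adjusted p = 0.029). In muscle-rich libraries the values of both genotypes overlapped (29.5 to 47.5 CPM in GRWT, 44.8 to 56.0 CPM in GRDim), and in muscle-poor libraries they did not (48.0 and 71.7 CPM against 81.6 to 93.6 CPM). The call was lost without GRWT zinc ileum replicate 3 (0.36, adjusted p = 0.062), without GRWT zinc replicate 4 (0.37, adjusted p = 0.062), and without GRDim zinc replicates 1, 3 or 5 (adjusted p 0.050 to 0.054), and it held in 6 of 15 other alternatives. In muscle-rich libraries alone 1 member passed, Slc39a14 (-0.39, adjusted p = 0.0048), where 18.8% of genes did, and in muscle-poor libraries alone 0 of 10 passed, where 0.0575% did. Slc39a9 was at -0.27 (adjusted p = 0.12) in all libraries and at -0.061 (adjusted p = 0.57) without GRWT zinc ileum replicate 3. It passed only without GRWT zinc replicate 2 (-0.34, adjusted p = 0.038), which leaves replicate 3 as the lone muscle-poor GRWT zinc library. Enterocyte markers were lower in GRDim mice on zinc as well (7579 to 9991 CPM against 10907 to 12663 CPM in muscle-rich libraries). In the same libraries goblet cell (7717 to 9659 CPM against 11062 to 12398 CPM, 6 of 6 detected) and Paneth cell markers (1885 to 4278 CPM against 5986 to 8052 CPM) were lower, and plasma and B cell (3664 to 4589 CPM against 1335 to 2015 CPM) and T cell markers (193 to 197 CPM against 47.0 to 76.8 CPM) were higher. The part of these cell types in the differences was not tested.

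Muscle content went with the level of nearly every importer. Between muscle-rich and muscle-poor libraries, with the 4 conditions in the fit, 9 of 10 members passed, where 62.4% of all genes did (10230 of 16389). The enterocyte importers Slc39a4 and Slc39a5 were lower in muscle-rich libraries, by a log2 fold change of -0.73 ± 0.09 (edgeR, adjusted p = 2.5e-07) and -0.71 ± 0.04 (adjusted p = 9.5e-12). Slc39a5 ran from 124 to 178 CPM in the 12 muscle-rich libraries (median 135) and from 196 to 247 CPM in the 10 muscle-poor libraries (median 220), with no overlap. Slc39a14 (-0.33), Slc39a3 (-0.31), Slc39a9 (-0.21), Slc39a11 (-0.19) and Slc39a1 (-0.15) were lower by less, and Slc39a9, Slc39a11 and Slc39a1 turned to 0.060, 0.060 and 0.10 when libraries were scaled by their totals alone, under which Slc39a14 and Slc39a3 no longer passed. Without GRWT zinc ileum replicate 3, Slc39a14 was at -0.20 and Slc39a9 at -0.11. The call for Slc39a9 was lost without any of GRDim water replicates 4, 5 and 6, GRDim zinc replicate 3 or GRWT zinc replicate 1 (adjusted p 0.059 to 0.090), and it held in 3 of 9 other alternatives.

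Slc39a6 and Slc39a8 were higher in muscle-rich libraries. Slc39a6 ran from 5.79 to 11.2 CPM there (median 9.13) and from 3.49 to 6.63 CPM in muscle-poor libraries (median 5.71), a log2 fold change of 0.74 ± 0.11 (edgeR, adjusted p = 3.8e-06). Slc39a8 had a log2 fold change of 0.35 (adjusted p = 0.032), which was 0.51 without GRWT zinc ileum replicate 3 and lost its call without GRDim water replicate 1 or 1 of the unnumbered pair, GRWT water replicates 2 or 3, or GRWT zinc replicate 2 (adjusted p 0.052 to 0.076). It held in 6 of 9 other alternatives. Slc39a7 did not pass (0.19, adjusted p = 0.065), but did in 6 of the 22 fits with 1 library left out (0.21 to 0.24): GRDim water replicate 4 or 1 of the unnumbered pair, GRDim zinc replicate 3, or GRWT zinc replicates 1, 2 or 3. Slc39a7 also passed in 4 of 9 other alternatives, with values from 0.18 to 0.44 over all 9. Of the other family members, Slc39a10 (0.83) and Slc39a13 (1.04) were higher in muscle-rich libraries too. Smooth muscle, fibroblast and macrophage markers differed with the class, their summed levels being 1548 to 2525, 592 to 985 and 218 to 408 CPM in muscle-rich and 196 to 331, 15.1 to 57.1 and 13.8 to 25.3 CPM in muscle-poor libraries, with all 22 genes of these lists detected. Plasma and B cell markers (1335 to 4924 CPM against 298 to 354 CPM) and markers of enteric neurons and glia (9.97 to 19.0 CPM against 0.381 to 1.12 CPM, 6 of 6 detected) were higher in muscle-rich libraries as well. Lower there were goblet cell markers (7129 to 12398 CPM against 12544 to 17741 CPM) and, with some overlap, enterocyte markers (5027 to 12784 CPM against 11973 to 83831 CPM). Their part in the members' levels was not tested.

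**Figure D5:**
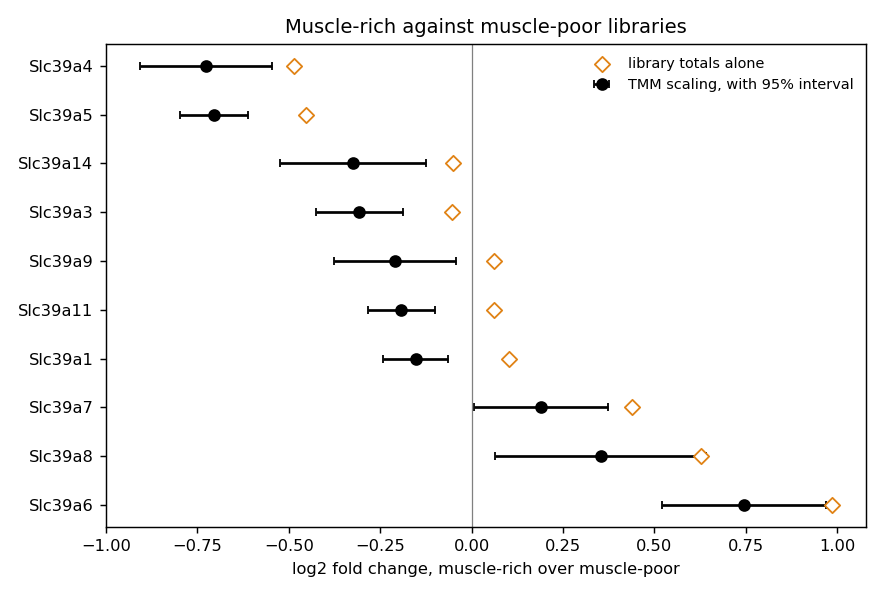
Log2 fold change of each member, muscle-rich over muscle-poor libraries (horizontal axis), under TMM scaling with 95% intervals (black) and under library totals alone (open orange). Slc39a4 and Slc39a5 are lowest (-0.73 and -0.71) and Slc39a6 highest (0.74) under TMM, and Slc39a1, Slc39a9 and Slc39a11 change sign under library totals.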

How the data were processed

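The authors made stranded single-end TruSeq libraries, mapped them to mm10 with HISAT2 2.0.4 and counted reads per gene with featureCounts, per the labels and the methods. The deposited values are raw counts per Ensembl gene, with no normalization, and names and coordinates came from GENCODE vM21 (GRCm38), in which 54809 of 54838 identifiers were found. A pair of GRDim water ileum columns carried the same name, so their replicate numbers are unknown. Counts were tested in edgeR 4.0.16 (R 4.3.3) by robust quasi-likelihood F tests with TMM normalization, filterByExpr, all 22 libraries and the muscle class (Myh11 above or below 100 CPM) as covariate. Passing means a Benjamini-Hochberg adjusted p under 0.05 over all genes tested. SEs were derived from the F statistic. The fit was tested on simulated data. Alternatives were DESeq2 1.42.0, other covariates, scalings, filters and library subsets, the replicate number as a block, and leaving out each library. The 10 members were always named, and for likeness to Slc39a4 the 5 highest and 5 lowest correlations. Members, lists and alternatives were chosen with earlier results of these data known. The series text mentions dexamethasone, which no sample label names.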

Additional observations from a re-analysis of the deposited data

Results flagged for a closer look

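In the 40 sets of 5 or 6 libraries examined (10 members in 4 conditions), 4 held a library far from the others, and chance alone marks about 1 set in 20. GRWT zinc ileum replicate 3 had 348 CPM of Slc39a9 against 166 to 211 CPM in the other GRWT zinc libraries, and 225 CPM of Slc39a14 against 98.2 to 107 CPM. These values are TMM-normalised, and the TMM factor of this library (0.643, against 0.907 to 1.12 in all others) raises them above CPM by library size. Whether these flags hold under library totals was not tested. GRWT zinc replicate 1 had 3.50 CPM of Slc39a7 against 4.26 to 4.36 CPM. GRDim zinc replicate 4 had 205 CPM of Slc39a9 against 175 to 185 CPM in the other GRDim zinc libraries. In every condition these sets mix muscle-rich and muscle-poor libraries.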

How the results depend on the processing

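Slc39a4 passed in both zinc comparisons and their average under every alternative run, its log2 fold change ranging from -2.67 to -2.24 in GRWT and from -1.70 to -1.56 in GRDim mice with the 22 fits that left out 1 library included. Counts of members passing moved as follows, against 2 (zinc averaged over genotypes), 3 (genotype on water) and 2 (genotype on zinc). The tissue label in place of the muscle class gave 1, 0 and 0, as did no covariate and the muscle-poor libraries alone, with or without GRWT zinc ileum replicate 3. Muscle-rich libraries alone gave 1, 6 and 1. Leaving out GRWT zinc ileum replicate 3 gave 5 on water and 1 on zinc, where 31.1% and 8.36% of all genes passed (main 16.2% and 10.4%). Library totals gave 1 for zinc averaged, 1 for genotype on zinc and 5 for muscle class (main 9). They moved the median of all genes for muscle class from 0.01 to 0.26 and the share of higher calls from 52.4% to 81.1%, and in GRDim mice on zinc this share went from 66.8% to 57.3%, averaged over genotypes from 68.3% to 56.6%, between genotypes on zinc from 45.0% to 55.4%, and between genotypes on water from 49.5% to 57.6%. Under totals the muscle-class fold changes of Slc39a1 (0.10), Slc39a9 (0.060) and Slc39a11 (0.060) reversed. The libraries of the compared conditions alone gave 2 for zinc in GRDim mice (main 1), 5 on water and 0 on zinc. DESeq2 gave 1 for the interaction (main 0). No filter gave 1 for zinc averaged. The share of all genes passing was not counted for these alternatives, so their member counts have no background beside them. Leaving out each library gave 1 to 2 for zinc averaged, 1 to 5 for genotype on water, 1 to 3 for genotype on zinc, 8 to 10 for muscle class, 1 to 2 for zinc in muscle-rich and 1 to 4 in muscle-poor libraries (the 4 without GRWT zinc replicate 2, which leaves GRWT zinc ileum replicate 3 as the lone GRWT zinc library, assumed to vary like the others). With 1 library left out of the full fit, 347 to 1426 of all genes passed for zinc averaged and 1393 to 5247 for genotype on water. For genotype on zinc 597 to 3104 did, and for muscle class 9828 to 11283. The causes of the moves in the counts of members were not tested, apart from fewer libraries in the subsets. With the replicate number as a block over the numbered libraries, 1 passed for zinc averaged and 0 for genotype on zinc, against 1 for zinc averaged in the same libraries without the block. The deviations of same-numbered libraries had correlations of -0.24 to 0.40. In groups this small these values cannot show whether the number marks a pairing. The numbered-library fit and the muscle-poor fit without replicate 3 were added after seeing the data. Slc39a6 and Slc39a7 had the lowest mean CPM of the members over all libraries (7.35 and 4.50 CPM). What size of difference could be detected for them was not tested.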
